A study of Arabidopsis thaliana with 9 samples.

Results

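The nuclear genes of the photosystems and their light-harvesting antennae were followed as 41 loci of the 37361 in the count tables, named by locus identifier. No measured value enters that naming, but the set was chosen with earlier results of these data known. They are 14 LHCB genes of the photosystem II antenna, 6 LHCA genes of the photosystem I antenna, 11 PSA genes of photosystem I subunits and 10 PSB genes of photosystem II subunits. Polyadenylated RNA came from seedlings of *Arabidopsis thaliana*, 14 days old, which the labels place on 1/2 MS medium with 1% sucrose, at 22 °C with 16 h of light and 8 h of dark, and without treatment. The 3 groups were Col, *thp1-5* and *sac3bc*, with 3 libraries each, and the labels give genotype as their one difference. THP1, SAC3B and SAC3C belong to TREX-2, which couples the making of mRNAs to their passage through nuclear pores. The labels do not say which lesion the *thp1-5* allele or the *sac3bc* line carries, nor whether replicate libraries were grown apart. The p-values therefore speak only of the spread among libraries, which may be technical.

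Light-harvesting proteins bind chlorophyll and pass the energy of absorbed light to the reaction centres. Photosystem II, with its antenna of LHCB proteins, splits water, and photosystem I, with its belt of LHCA proteins, reduces ferredoxin. The reaction centre proteins that carry the chlorophylls of charge separation are encoded in the chloroplast, while the antenna and most small and peripheral subunits are encoded in the nucleus and imported. Their mRNAs are among the most abundant of green leaves and are known to respond to light, sugar and signals from the plastid.

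All 41 loci lie on the nuclear chromosomes and are protein-coding in the RefSeq annotation of TAIR10.1, and for all 41 the deposited gene length equals the union of the RefSeq exons. LHCB1, the main protein of the trimeric antenna LHCII, has 5 copies in 2 clusters. On chromosome 1, *LHCB1.2* and *LHCB1.1* lie 1153 bases apart on the minus strand and *LHCB1.1* is 1915 bases from *LHCB1.3*, which is read away from it. On chromosome 2, *LHCB1.5* (14522524 to 14523568, minus strand) and *LHCB1.4* (14524607 to 14525918, plus strand) are also read away from each other, with 1038 bases and no annotated locus between them. The coding sequences of *LHCB1.1*, *LHCB1.2* and *LHCB1.3* are 95.7 to 96.4% identical, and those of *LHCB1.4* and *LHCB1.5* are 91.4% identical. Between the 2 clusters the identity is 86.8 to 90.4%. The 250 bases before the annotated start of each LHCB1 copy are shown because these copies changed by different amounts. Capitals mark matches, on either strand, to any of 4 motifs: CACGTG (the G-box, bound by bZIP and PIF factors), GATAAG (the I-box), CCAATC (described for GLK factors) and AAATATC (from the evening element of clock-controlled genes).
LHCB1.1, chr1:10475970-10476219, minus strand: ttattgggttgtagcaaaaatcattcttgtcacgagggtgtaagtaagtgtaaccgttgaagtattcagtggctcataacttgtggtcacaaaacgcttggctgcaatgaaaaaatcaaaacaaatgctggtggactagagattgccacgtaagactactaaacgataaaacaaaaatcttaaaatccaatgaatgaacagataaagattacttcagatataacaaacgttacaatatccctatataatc
LHCB1.2, chr1:10473503-10473752, minus strand: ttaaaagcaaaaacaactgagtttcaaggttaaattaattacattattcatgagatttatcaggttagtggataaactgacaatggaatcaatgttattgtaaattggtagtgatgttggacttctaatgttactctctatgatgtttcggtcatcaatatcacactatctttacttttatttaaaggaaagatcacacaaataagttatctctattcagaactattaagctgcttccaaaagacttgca
LHCB1.3, chr1:10477635-10477884, plus strand: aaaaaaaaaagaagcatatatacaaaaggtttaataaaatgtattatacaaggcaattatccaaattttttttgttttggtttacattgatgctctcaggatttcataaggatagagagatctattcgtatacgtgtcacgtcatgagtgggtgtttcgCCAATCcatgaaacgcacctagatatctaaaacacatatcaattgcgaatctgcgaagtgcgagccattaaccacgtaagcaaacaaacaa
LHCB1.4, chr2:14524357-14524606, plus strand: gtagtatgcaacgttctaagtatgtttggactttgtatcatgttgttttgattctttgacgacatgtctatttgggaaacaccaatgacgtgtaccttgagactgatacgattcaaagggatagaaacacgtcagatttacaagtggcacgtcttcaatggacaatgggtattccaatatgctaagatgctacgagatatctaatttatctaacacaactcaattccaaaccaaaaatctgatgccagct
LHCB1.5, chr2:14523569-14523818, minus strand: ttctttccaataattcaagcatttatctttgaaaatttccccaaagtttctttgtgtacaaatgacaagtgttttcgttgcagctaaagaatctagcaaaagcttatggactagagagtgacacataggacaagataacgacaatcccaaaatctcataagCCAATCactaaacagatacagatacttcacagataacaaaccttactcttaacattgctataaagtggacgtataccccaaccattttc

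Each sequence is the strand of its gene, 5′ to 3′, from RefSeq TAIR10.1. The CCAATC of *LHCB1.3* lies 91 to 86 bases before the start and that of *LHCB1.5* 89 to 84 bases before it. In *LHCB1.1*, *LHCB1.2* and *LHCB1.4* none of the 4 motifs occurs in this window. *LHCB1.4*, whose level changed most, shares the lack of a match with *LHCB1.1*, whose level changed least of the 5. A link between the motifs and the changes was not tested.

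Libraries held 12.8 to 17.9 M counts, and all 41 genes passed the filter on low counts. Between replicates, the variance was 1.46 to 1.97 times that expected from counting alone. *THP1* stood at 12.6 ± 1.31 CPM in Col, 11.8 ± 0.786 for *thp1-5* and 6.17 ± 1.03 for *sac3bc* (SD, n = 3 each; CPM are counts scaled to a common library size with TMM factors), so its transcript does not mark the *thp1-5* label. *SAC3B* and *SAC3C* were at 54.9% and 50.9% of Col in *sac3bc*. *SAC3B* was also called lower in *thp1-5*, at 70.7% of Col, while *SAC3C* was not called there (88.6%). *THP1* was at 48.8% of Col in *sac3bc*. A fall of *SAC3B* or *THP1* is thus not confined to the line labelled for that gene, and counts over a whole gene check these labels only in part.

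The 41 genes took a smaller part of the mRNA in both mutants. Their share of all counts was 14.5%, 14.3% and 14.5% in the Col libraries, 11.2%, 10.95% and 10.9% in *thp1-5* and 10.2%, 9.88% and 9.91% in *sac3bc*. No group overlapped another. The means were 14.4 ± 0.0991%, 11.02 ± 0.122% and 9.99 ± 0.171% (SD, n = 3), a difference from Col of −3.42 percentage points in *thp1-5* and −4.44 points in *sac3bc*, and of 1.02 points between *thp1-5* and *sac3bc*. An exact two-sided permutation test gave p = 0.1 for each of these 3 differences, the smallest p that 3 libraries against 3 allow. The LHCB genes alone took 7.74 ± 0.0727% of the counts in Col, 5.78 ± 0.083% for *thp1-5* and 5.19 ± 0.115% for *sac3bc* (SD, n = 3). This share does not use the TMM factors, but overlapping loci can hold the same count, as *LHCB1.5* and AT2G08665 do in every library, so it is a share of counts and not of reads.

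**Figure D1:**
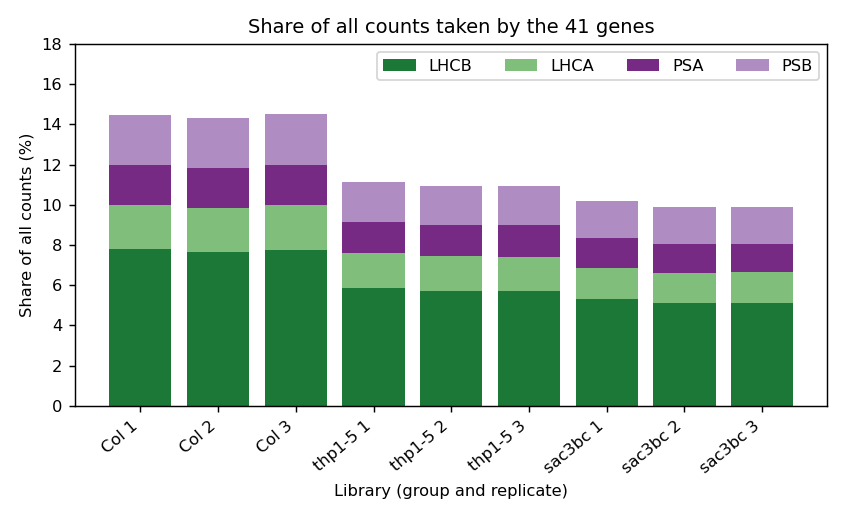
Share of all counts (percent, y axis from 0) taken by the LHCB, LHCA, PSA and PSB genes, stacked, in each of the 9 libraries (x axis, group and replicate). The 3 Col libraries stand between 14.3 and 14.5%, the *thp1-5* libraries between 10.9 and 11.2% and the *sac3bc* libraries between 9.88 and 10.2%.

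Against Col, 40 of the 41 genes were lower in *thp1-5* and 40 of 41 in *sac3bc*, and 0 were higher in either (adjusted p under 0.05, edgeR quasi-likelihood test, Benjamini-Hochberg over 22400 genes). Among all genes tested, 31.8% were called lower and 32% higher in *thp1-5*, and 33% lower and 35% higher in *sac3bc*. Abundant genes were lower more often. Of 1670 genes with a mean of at least 100 CPM over the 9 libraries, 66.6% were called lower and 22% higher in *thp1-5*. In *sac3bc* 67.1% of them were lower and 24.3% higher. In Col alone, 40 of the 41 genes had a mean of at least 100 CPM. Among these, *LHCA5* and *LHCA6* missed the cut over the 9 libraries, with 80.4 and 78.4 CPM for *thp1-5* and 67.6 and 68.6 for *sac3bc*. The median log2 fold change of the 41 was −0.63 in *thp1-5*, or 64.6% of the Col level, against 0.01 over all genes and −0.26 over the abundant ones. In *sac3bc* it was −0.82, or 56.7% of the Col level, against 0.03 and −0.31. The groups did not overlap for 40 of the 41 genes in either comparison, and the one gene left was *LHCB4.3* each time. How many of all genes had groups apart in this way was not counted, so this describes the 41 genes only. Scaled by total counts alone, 34 were lower and 4 higher in *thp1-5* and 38 lower and 2 higher in *sac3bc*, with medians of −0.34 and −0.48, as that scaling moves the median of all genes to 0.30 and 0.37. Over all genes it gave 12534 higher and 3615 lower in *thp1-5*, against 7179 and 7119 with TMM, and 13620 higher and 3637 lower in *sac3bc*, against 7829 and 7402. The change was at least 2-fold for 1 gene in *thp1-5* (*LHCB1.4*) and for 8 in *sac3bc*: *LHCB1.2* to *LHCB1.5*, *LHCA5*, *PSAF*, *PSAN* and *PSBQ2*. With total counts it was at least 2-fold for 1 gene in each mutant, *LHCB1.4*. In bulk seedling RNA, fewer green cells and less of these mRNAs per cell cannot be told apart.

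**Figure D2:**
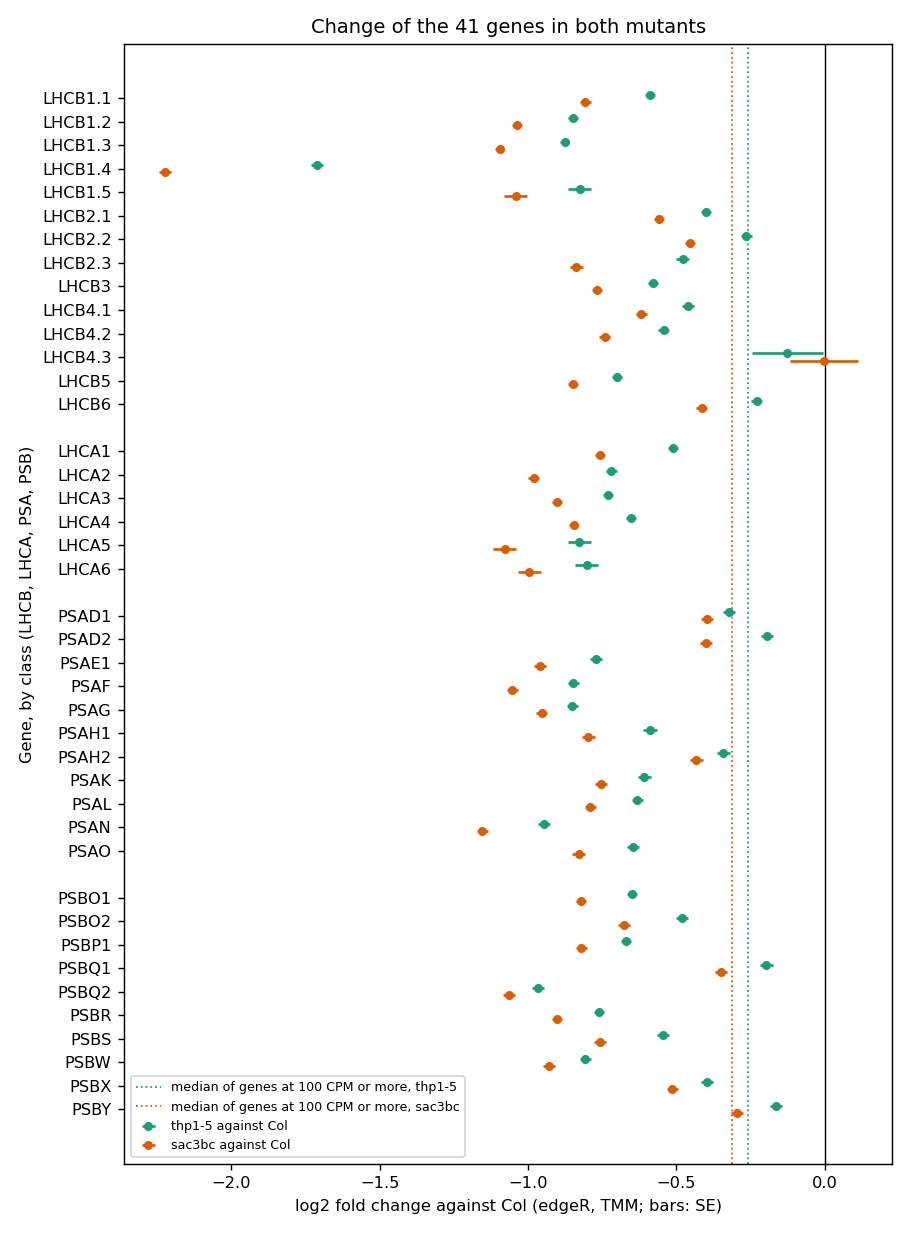
Log2 fold change against Col (x axis, edgeR with TMM factors, bars are SE) of each of the 41 genes (y axis, by class) in *thp1-5* (green) and *sac3bc* (orange), with dotted lines at the median of 1670 abundant genes, −0.26 and −0.31. Every point except that of *LHCB4.3* stands further left in *sac3bc* than in *thp1-5*, and *LHCB1.4* stands furthest left at −1.71 and −2.22.

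The mutants also differed from each other. Of the 41 genes, 40 were higher in *thp1-5* than in *sac3bc* and 0 lower, where 12.1% of all genes were called higher and 10.9% lower, and 45.3% and 19.9% of the abundant ones (edgeR, adjusted p under 0.05). The median difference was 0.19 on the log2 scale, against 0.0002 over all genes and 0.06 over the abundant ones, and the largest was 0.51 for *LHCB1.4*. For 40 genes all 3 *thp1-5* libraries lay above all 3 *sac3bc* libraries. The share of all genes for which this holds was not counted. Both comparisons with Col use the same Col libraries, so their values are given side by side and not correlated.

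Per kb of gene length, *LHCB1.3* was the most abundant of the 41 in Col at 19121 ± 246.7 CPM per kb, followed by *LHCB1.5* at 14513 ± 310, *PSBR* at 6746 ± 120 and *LHCA4* at 6447 ± 35.6 (SD, n = 3). At the other end stood *LHCA5* at 133 ± 3.82, *LHCA6* at 118 ± 1.31 and *LHCB4.3* at 6.51 ± 0.721 CPM per kb. Some neighbours in this order differ by less than their SD: *LHCA3* stood at 3554 ± 18.3 and *PSAG* at 3548 ± 64.8 CPM per kb, and *LHCB6* at 2769 ± 40.5 and *LHCB2.2* at 2757 ± 38.3. Across the 41 genes, Spearman's rho between the log level per kb in Col and the log2 fold change was −0.377 in *thp1-5* and −0.335 in *sac3bc*, a description only, as the same Col libraries enter both quantities.

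**Figure D3:**
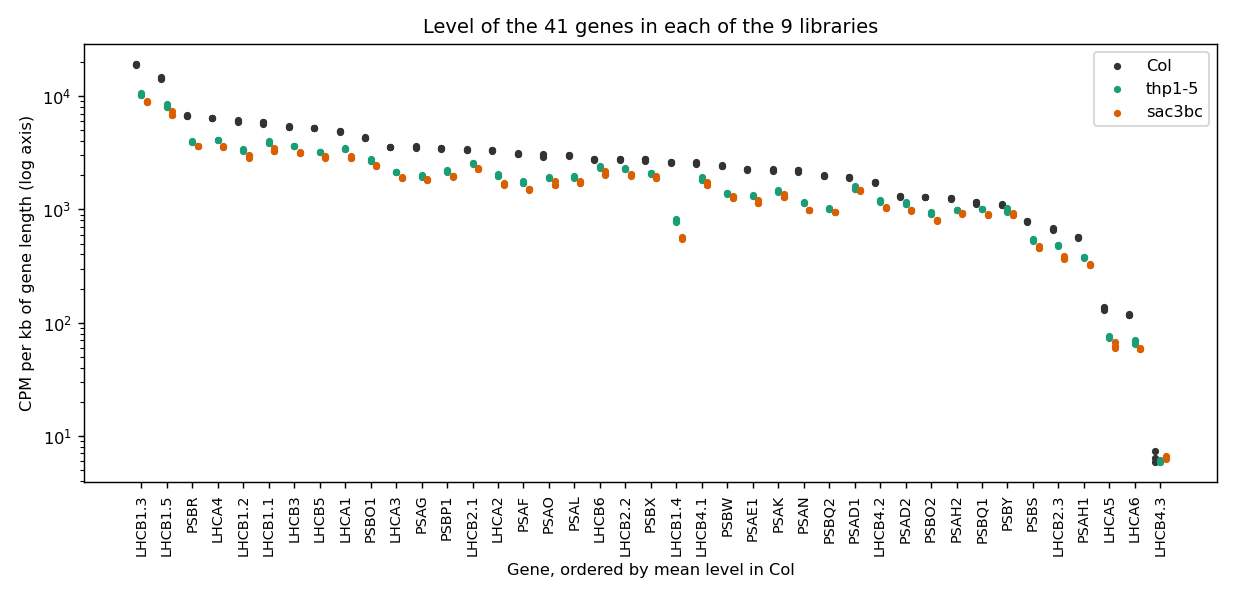
Level of each gene (x axis, ordered by mean level in Col) in CPM per kb of gene length (y axis, log scale), with 1 point for each of the 9 libraries. Col points lie above those of both mutants for every gene except *LHCB4.3*, where Col, at 6.51 CPM per kb on average, overlaps both mutants.

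*LHCB1.4* (AT2G34430) fell furthest of all 41 genes. It stood at 3475, 3362 and 3469 CPM in Col, 1089, 1040 and 1018 CPM for *thp1-5* and 756, 726 and 727 CPM for *sac3bc*. The 3 groups are widely apart, and its level was 30.5% of Col in *thp1-5* (log2 fold change −1.71 ± 0.02, SE, adjusted p = 6.95e-113, edgeR) and 21.4% in *sac3bc* (−2.22 ± 0.02, adjusted p = 1.71e-126). Its neighbour *LHCB1.5* (AT2G34420) stood at 15481, 14834 and 15183 CPM in Col, 8897, 8348 and 8422 for *thp1-5* and 7732, 7193 and 7192 for *sac3bc*. Though the pair is read from one short interval, *LHCB1.5* changed by −0.83 ± 0.04 and −1.04 ± 0.04, against −0.85 and −1.04 for *LHCB1.2* and −0.59 and −0.81 for *LHCB1.1* on chromosome 1. All exonic bases of *LHCB1.5* are also annotated to other loci, AT2G08665 and AT2G34410.

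The chromosome 1 copies changed by unequal amounts. *LHCB1.3* (AT1G29930) stood at 23730, 23171 and 23656 CPM in Col, 13215, 12602 and 12634 for *thp1-5* and 11222, 10860 and 10945 for *sac3bc*. *LHCB1.2* (AT1G29910) stood at 7449, 7237 and 7487 CPM in Col, 4205, 4026 and 4094 for *thp1-5* and 3716, 3503 and 3588 for *sac3bc*. *LHCB1.1* (AT1G29920) stood at 7849, 7535 and 7752 CPM in Col, 5239, 5042 and 5105 for *thp1-5* and 4572, 4315 and 4342 for *sac3bc*. In each of these genes the groups are apart and *sac3bc* is lowest. The log2 fold changes were −0.88 ± 0.02 and −1.10 ± 0.02 for *LHCB1.3*, −0.85 ± 0.02 and −1.04 ± 0.02 for *LHCB1.2* and −0.59 ± 0.02 and −0.81 ± 0.02 for *LHCB1.1* (*thp1-5* and *sac3bc*, SE).

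Within the LHCB1 family the balance of copies moved. Per gene length, *LHCB1.4* made up 5.43%, 5.42% and 5.46% of LHCB1 in the Col libraries, 3.02%, 3.03% and 2.95% in *thp1-5* and 2.44%, 2.47% and 2.46% in *sac3bc*. *LHCB1.1* rose from a share of 12.2 ± 0.0493% in Col to 14.6 ± 0.132% for *thp1-5* and 14.7 ± 0.0512% for *sac3bc* (SD, n = 3), with all mutant libraries above all Col libraries (exact permutation p = 0.1, the smallest possible). *LHCB1.3* held 39.7 ± 0.177%, 39.1 ± 0.0906% and 39.2 ± 0.446% and remained the largest of the 5. No stretch of 150 coding bases, the read length, is the same in an LHCB1 copy and another of the 41 genes, and the sources used here do not say how reads that match more than 1 copy were counted. With *LHCB1.1* to *LHCB1.3* summed as 1 gene and *LHCB2.1* (AT2G05100) and *LHCB2.2* (AT2G05070) as another, 37 of 38 were lower in each mutant. Without summing, 31.8% of all genes tested were called lower in *thp1-5* and 33% in *sac3bc*, and 66.6% and 67.1% of the abundant ones.

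LHCB2 is the other main LHCII protein and, with LHCB1, is phosphorylated in state transitions. *LHCB2.1* stood at 4742, 4732 and 4762 CPM in Col, 3647, 3590 and 3545 for *thp1-5* and 3289, 3182 and 3193 for *sac3bc*. *LHCB2.2* stood at 3158, 3104 and 3191 CPM in Col, 2658, 2624 and 2591 for *thp1-5* and 2352, 2269 and 2281 for *sac3bc*. *LHCB2.3* (AT3G27690) was lower throughout, at 995, 972 and 986 CPM in Col, 714, 711 and 693 for *thp1-5* and 570, 537 and 547 for *sac3bc*. All groups are apart in these genes. *LHCB2.2* changed by −0.26 ± 0.02 in *thp1-5* and −0.45 ± 0.02 in *sac3bc*, and *LHCB2.3* by −0.48 ± 0.02 and −0.84 ± 0.02 (SE). With total counts *LHCB2.2* was at 0.024 in *thp1-5* and was not called. *LHCB2.3* shares 40.6% of its exonic bases with another locus. Its share of LHCB2 per length went from 9.88 ± 0.0770% in Col to 9.04 ± 0.0569% for *thp1-5* and 8.04 ± 0.0961% for *sac3bc* (SD, n = 3). *LHCB2.1* and *LHCB2.2*, 96.6% identical in coding sequence, share 3 windows of 150 bases, or 0.206% and 0.462% of those they hold.

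*LHCB3* (AT5G54270), of the third LHCII protein, stood at 6706 ± 56.8 CPM in Col and changed by −0.58 ± 0.02 in *thp1-5* and −0.77 ± 0.02 in *sac3bc*. Among the minor antenna proteins, which link LHCII to the photosystem II core, *LHCB5* (AT4G10340, CP26) changed by −0.70 ± 0.02 and −0.85 ± 0.02 and *LHCB6* (AT1G15820, CP24) by −0.23 ± 0.02 and −0.41 ± 0.02. With total counts *LHCB6* was called higher in *thp1-5* (0.059, adjusted p = 0.000887, edgeR). *LHCB3* and *LHCB6* share 15% and 20.4% of their exonic bases with other loci. LHCB4 (CP29) has 3 genes with unequal levels. *LHCB4.1* (AT5G01530) stood at 3641, 3540 and 3581 CPM in Col, 2702, 2564 and 2559 for *thp1-5* and 2418, 2298 and 2297 for *sac3bc*. *LHCB4.2* (AT3G08940) stood at 2381, 2341 and 2367 CPM in Col, 1663, 1608 and 1597 for *thp1-5* and 1437, 1409 and 1395 for *sac3bc*. Both fell in both mutants, by 0.46 and 0.62 for *LHCB4.1* and by 0.54 and 0.74 for *LHCB4.2* on the log2 scale. *LHCB4.3* (AT2G40100), the gene that was not called, stood at 9.17, 8.53 and 10.6 CPM in Col, 8.55, 8.58 and 8.79 for *thp1-5* and 9.67, 9.47 and 9.12 for *sac3bc*. Its values overlap between Col and each mutant, with log2 fold changes of −0.13 ± 0.12 in *thp1-5* (adjusted p = 0.36, edgeR) and −0.0028 ± 0.11 in *sac3bc* (adjusted p = 0.984). With total counts the sign turned in both, to 0.16 in *thp1-5* (not called) and 0.33 in *sac3bc* (adjusted p = 0.00578, edgeR). Between the mutants it was not called, though all *thp1-5* libraries lay below all *sac3bc* libraries. Its share of LHCB4 per length was 0.151 ± 0.0164% in Col, 0.195 ± 0.00753% for *thp1-5* and 0.240 ± 0.00393% for *sac3bc* (SD, n = 3).

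All 6 LHCA genes fell in both mutants, with a median log2 fold change of −0.73 in *thp1-5* and −0.94 in *sac3bc*, the lowest medians of the 4 classes in both. For scale, 31.8% and 33% of all genes tested were called lower, and 66.6% and 67.1% of the abundant ones. *LHCA5* (AT1G45474), whose protein with LHCA6 links photosystem I to the NDH complex, stood at 138, 143 and 146 CPM in Col, 79.0, 80.7 and 81.4 for *thp1-5* and 71.8, 64.6 and 66.3 for *sac3bc*. *LHCA6* (AT1G19150) stood at 138, 137 and 135 CPM in Col, 75.9, 78.0 and 81.3 for *thp1-5* and 69.4, 68.6 and 67.8 for *sac3bc*. In both genes the groups are apart, with changes of −0.83 ± 0.04 and −1.08 ± 0.04 for *LHCA5* and −0.80 ± 0.04 and −1.0 ± 0.04 for *LHCA6* (SE). *LHCA2* (AT3G61470), of the antenna belt, stood at 4681, 4586 and 4671 CPM in Col, 2897, 2797 and 2773 for *thp1-5* and 2407, 2310 and 2345 for *sac3bc*. *LHCA1* (AT3G54890), with the smallest change of the class, stood at 6235, 6193 and 6264 CPM in Col, 4444, 4353 and 4316 for *thp1-5* and 3788, 3641 and 3632 for *sac3bc*, a change of −0.51 ± 0.02 and −0.76 ± 0.02. *LHCA3* (AT1G61520) and *LHCA4* (AT3G47470) lay between, at −0.73 and −0.65 in *thp1-5* and −0.90 and −0.85 in *sac3bc*.

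All 11 genes of photosystem I subunits fell in both mutants, with medians of −0.63 and −0.80. The shares called lower were 31.8% and 33% over all genes tested and 66.6% and 67.1% over the abundant ones. PSAN and PSAF are subunits of the lumenal side, where plastocyanin docks. *PSAN* (AT5G64040) stood at 2192, 2254 and 2274 CPM in Col, 1155, 1181 and 1151 for *thp1-5* and 1010, 1005 and 1007 for *sac3bc*, a change of −0.95 ± 0.02 and −1.15 ± 0.02. *PSAF* (AT1G31330) stood at 3817, 3725 and 3728 CPM in Col, 2146, 2065 and 2056 for *thp1-5* and 1825, 1813 and 1795 for *sac3bc*, a change of −0.85 ± 0.02 and −1.05 ± 0.02. *PSAG* (AT1G55670), on the antenna side of the complex, stood at 2820, 2719 and 2762 CPM in Col, 1561, 1532 and 1513 for *thp1-5* and 1455, 1419 and 1413 for *sac3bc*, a change of −0.85 ± 0.02 and −0.95 ± 0.02. The groups of these 3 genes are apart, though *PSAG* shares 61.4% of its exonic bases with another locus. *PSAE1* (AT4G28750), of the ferredoxin side, changed by −0.77 and −0.96, and *PSAK* (AT1G30380), *PSAL* (AT4G12800) and *PSAO* (AT1G08380), of the antenna and LHCII docking sides, by −0.61 to −0.64 in *thp1-5* and −0.75 to −0.83 in *sac3bc*. *PSAE1* shares 34.1% of its exonic bases with other loci.

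PSAD, the ferredoxin-docking subunit, fell least among photosystem I subunits. *PSAD1* (AT4G02770) stood at 2209, 2161 and 2202 CPM in Col, 1818, 1719 and 1717 for *thp1-5* and 1679, 1676 and 1639 for *sac3bc*. *PSAD2* (AT1G03130) stood at 1246, 1221 and 1257 CPM in Col, 1119, 1071 and 1064 for *thp1-5* and 946, 931 and 946 for *sac3bc*. The 2 copies changed by the same amount in *sac3bc*, −0.40 ± 0.02 each, and by −0.32 ± 0.02 and −0.20 ± 0.02 in *thp1-5* (SE). *PSAD1* per length accordingly made up 59.8 ± 0.153% of PSAD in Col, 57.6 ± 0.147% for *thp1-5* and 59.9 ± 0.464% for *sac3bc* (SD, n = 3; exact permutation p = 0.1 for *thp1-5* and 0.8 for *sac3bc* against Col). The difference of *PSAD1* between the mutants, 0.07 ± 0.02 (adjusted p = 0.0022, edgeR), was no longer called without *thp1-5* replicate 1 (0.043, adjusted p = 0.111). With total counts *PSAD2* was higher in *thp1-5* than in Col (0.093).

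PSAH, at the docking site of LHCII, showed a larger shift between copies. *PSAH1* (AT3G16140) stood at 745, 728 and 736 CPM in Col, 493, 486 and 491 for *thp1-5* and 430, 421 and 422 for *sac3bc*. *PSAH2* (AT1G52230) stood at 877, 869 and 879 CPM in Col, 690, 691 and 692 for *thp1-5* and 658, 647 and 640 for *sac3bc*. The minor copy fell further, by 0.59 and 0.80 on the log2 scale against 0.34 and 0.43 for *PSAH2*, and its share per length went from 31.2 ± 0.180% to 27.7 ± 0.160% and 26.1 ± 0.147% (SD, n = 3). Both genes overlap another locus, over 53.3% of the exonic bases of *PSAH1* and 24.8% of those of *PSAH2*.

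All 10 genes of photosystem II subunits fell, with medians of −0.60 and −0.79. Here too the shares called lower were 31.8% and 33% over all genes tested and 66.6% and 67.1% over the abundant ones. PSBO, PSBP and PSBQ form the lumenal shield of the water-splitting manganese cluster. *PSBO1* (AT5G66570) stood at 6525, 6410 and 6468 CPM in Col, 4246, 4069 and 4063 for *thp1-5* and 3696, 3621 and 3671 for *sac3bc*. *PSBO2* (AT3G50820) stood at 1694, 1696 and 1706 CPM in Col, 1247, 1206 and 1202 for *thp1-5* and 1076, 1068 and 1048 for *sac3bc*. The major copy changed by −0.65 and −0.82 and *PSBO2* by −0.48 and −0.68, so that *PSBO1* went from 77.0 ± 0.178% of PSBO per length to 74.9 ± 0.0925% and 75.2 ± 0.309% (SD, n = 3). *PSBP1* (AT1G06680) changed by −0.67 and −0.82, close to *PSBO1*.

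Of the 7 families examined, PSBQ had the largest shift in percentage points of a copy's share. *PSBQ1* (AT4G21280) stood at 1164, 1122 and 1157 CPM in Col, 998, 1009 and 999 for *thp1-5* and 913, 898 and 891 for *sac3bc*. *PSBQ2* (AT4G05180) stood at 2506, 2514 and 2559 CPM in Col, 1281, 1313 and 1285 for *thp1-5* and 1215, 1208 and 1204 for *sac3bc*. *PSBQ2* was at 51.2% and 47.9% of Col (−0.97 ± 0.02 and −1.06 ± 0.02), and *PSBQ1* at 87.3% and 78.5% (−0.20 ± 0.02 and −0.35 ± 0.02, SE). Per length, *PSBQ1* thus went from 37.2%, 36.3% and 36.6% of PSBQ in the Col libraries to 49.8%, 49.5% and 49.8% in *thp1-5* and 48.9%, 48.7% and 48.5% in *sac3bc*, a gain of 13.02 and 12.03 percentage points (exact permutation p = 0.1, the smallest possible). This share does not depend on the scaling of libraries, whereas the direction of *PSBQ1* itself does: with total counts it was called higher in *thp1-5* (0.092, adjusted p = 8.05e-06) and not called in *sac3bc*. The coding sequences of the copies are 76.9% identical, and neither gene shares exonic bases with another locus or a window of 150 coding bases with the other copy.

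**Figure D4:**
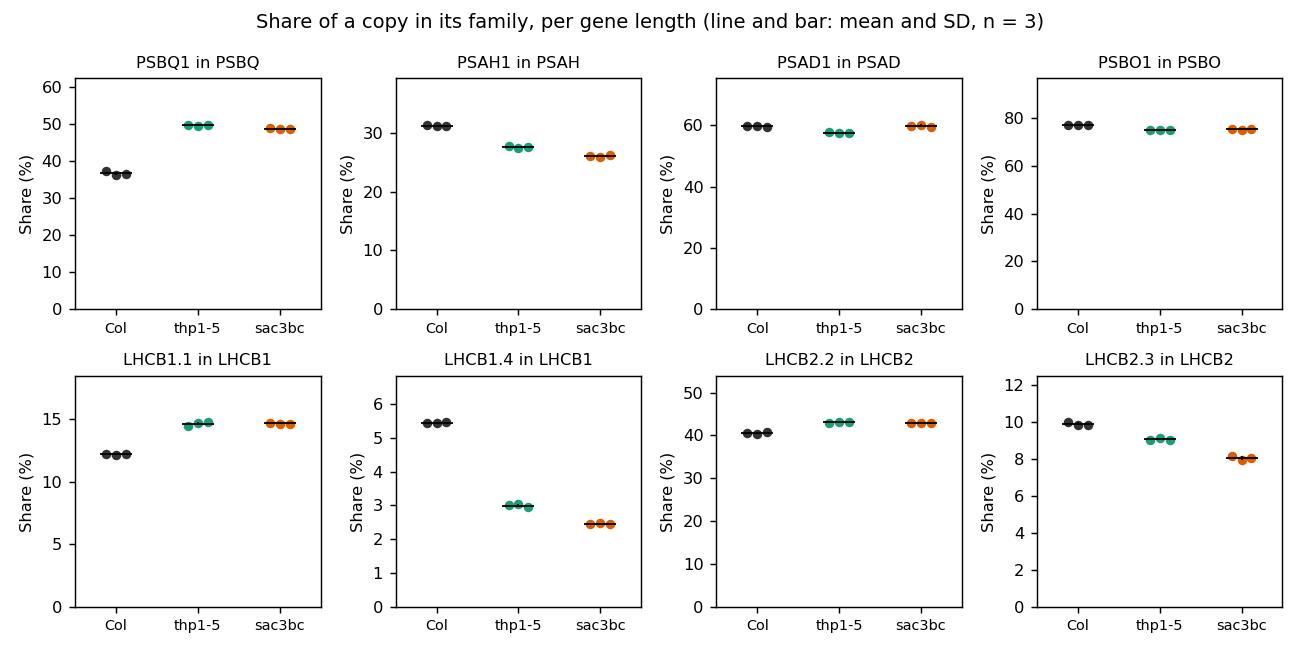
Share of a copy in its gene family (percent, y axes from 0) after division by gene length in each library of Col, *thp1-5* and *sac3bc* (points), with the mean and SD (n = 3). *PSBQ1* stands near 36.7% in Col and 49.7% and 48.7% in the mutants, and *LHCB1.4* falls from 5.44% to 2.997% and 2.46%.

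The promoters of the PSBQ pair were added after their values were seen, as the copies with the largest shift in percentage points of share. The same 4 motifs are in capitals.
PSBQ1, chr4:11334102-11334351, plus strand: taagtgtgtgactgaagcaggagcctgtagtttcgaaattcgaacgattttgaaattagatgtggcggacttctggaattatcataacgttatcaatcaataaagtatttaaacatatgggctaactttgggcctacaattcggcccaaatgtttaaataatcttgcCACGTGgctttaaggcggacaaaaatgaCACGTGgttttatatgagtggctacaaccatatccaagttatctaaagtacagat
PSBQ2, chr4:2673244-2673493, minus strand: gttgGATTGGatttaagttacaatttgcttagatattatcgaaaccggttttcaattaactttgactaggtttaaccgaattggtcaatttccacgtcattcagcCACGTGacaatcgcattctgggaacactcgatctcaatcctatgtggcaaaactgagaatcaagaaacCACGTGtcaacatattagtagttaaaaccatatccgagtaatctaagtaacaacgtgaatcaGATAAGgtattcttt

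Both hold a pair of G-boxes, in *PSBQ1* at 83 to 78 and 55 to 50 bases before the start and in *PSBQ2* at 145 to 140 and 77 to 72. *PSBQ2* also holds GATTGG, the reverse complement of CCAATC, and a GATAAG 15 to 10 bases before the start. Over the promoters of all 41 genes, CACGTG occurred in 7 (17.1%, against 6.49% of 27443 nuclear promoters of the same length), GATAAG in 9 (22%, against 12.3%), CCAATC in 11 (26.8%, against 10.2%) and AAATATC in 2 (4.88%, against 12.2%). Of the 11 promoters with CCAATC, 7 belong to LHCB genes, 3 to LHCA genes, 1 to a PSB gene and 0 to PSA genes. Both strands were searched, CACGTG is its own reverse complement and none of the motifs contains another. A match is a description of these letters and not a bound site.

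The remaining photosystem II genes fell by unequal amounts. *PSBW* (AT2G30570), a small subunit, stood at 2320, 2313 and 2343 CPM in Col, 1338, 1323 and 1328 for *thp1-5* and 1254, 1207 and 1202 for *sac3bc*. *PSBR* (AT1G79040), which assists the assembly of the lumenal shield, stood at 5201, 5279 and 5388 CPM in Col, 3162, 3112 and 3096 for *thp1-5* and 2839, 2822 and 2836 for *sac3bc*. *PSBY* (AT1G67740), with the smallest change of the class, stood at 1371, 1334 and 1331 CPM in Col, 1250, 1184 and 1168 for *thp1-5* and 1081, 1122 and 1087 for *sac3bc*. The groups of all 3 are apart, at −0.81 and −0.93 for *PSBW*, −0.76 and −0.90 for *PSBR* and −0.16 and −0.29 for *PSBY*. With total counts *PSBY* was called higher than Col in both mutants (0.12 and 0.042). *PSBS* (AT1G44575), the sensor of energy-dependent quenching, changed by −0.54 and −0.76 and *PSBX* (AT2G06520) by −0.40 and −0.51.

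Other genes of the thylakoid electron path fell with the photosystems. Of 15 genes of electron transport and ATP synthase, 13 fell and 2 rose in *thp1-5* and 13 fell and 1 rose in *sac3bc* (medians −0.61 and −0.72). With total counts 11 and 12 fell. Over all 22400 genes that scaling called 3615 lower and 12534 higher in *thp1-5*, and 3637 and 13620 in *sac3bc*. With TMM factors, 31.8% of all genes tested were called lower and 32% higher in *thp1-5*, and 33% and 35% in *sac3bc*. Of the abundant genes, 66.6% and 67.1% were called lower. *PGRL1A*, of cyclic electron flow, changed by −1.09 ± 0.02 and −1.38 ± 0.02, the ATP synthase gene *PDE334* by −0.85 ± 0.02 and −1.0 ± 0.02, the ferredoxin reductase gene *FNR2* by −0.77 ± 0.02 and −1.10 ± 0.02 and the Rieske protein gene *PETC* by −0.80 ± 0.02 and −1.0 ± 0.02. The ones that rose, named for their direction, were the ferredoxin gene *FD1* (0.16 ± 0.03 and 0.11 ± 0.03) and, in *thp1-5*, the ATP synthase gene *ATPD* (0.13 ± 0.02), which with total counts was called higher in *sac3bc* too (0.34). Of 7 other nuclear photosystem genes, 5 fell in each mutant (with total counts, 4 fell and 2 rose in *thp1-5* and 5 fell and 1 rose in *sac3bc*), among them *PSAE2*, the second PSAE gene, by 0.93 and 1.16 on the log2 scale, *PPL1* by 0.61 and 0.87, *PSBTN* by 0.41 and 0.61, *LHCB7* by 0.83 and 1.22 and *PSB27* by 0.20 and 0.42. With total counts *PSB27* was called higher in *thp1-5* (0.083) and *PSB28* in *sac3bc* (0.27). With TMM factors *PSB28* was called higher in *thp1-5* (0.13 ± 0.04) and not in *sac3bc* (−0.06), and *PSBP2* was called in neither.

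Of 8 genes for antenna insertion and state transitions, 7 fell in *thp1-5* and 8 in *sac3bc* (medians −0.39 and −0.47). Among all genes tested 31.8% and 33% were called lower. *TAP38*, the phosphatase that removes phosphate from LHCII, changed by −0.98 ± 0.03 and −1.23 ± 0.03, and *ALB3*, the translocase that inserts LHC proteins, by −0.86 ± 0.02 and −1.07 ± 0.02. The kinase genes *STN8* and *STN7* changed by −0.60 and −0.38 in *thp1-5* and −0.78 and −0.47 in *sac3bc*. With total counts 5 fell and 3 rose in *thp1-5*, where *CPSRP54* was called higher (0.079), and 6 fell in *sac3bc*. That scaling called 3615 of all 22400 genes lower and 12534 higher in *thp1-5*, and 3637 and 13620 in *sac3bc*. Between the mutants, 12 of the 15 electron transport genes, 6 of the 7 other photosystem genes and 7 of these 8 were higher in *thp1-5*, among them *PETM* (0.25 ± 0.03) and *CPSRP54* (0.22 ± 0.03, SE). In that comparison 12.1% of all genes tested and 45.3% of the abundant ones were called higher.

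Markers of leaf and root moved with the genotypes as well. Of 6 leaf markers, 5 fell in *thp1-5* and 6 in *sac3bc*, with medians of −0.40 and −0.65. With TMM factors, 31.8% and 33% of all genes tested were called lower, and 66.6% and 67.1% of the abundant ones. With total counts, 4 leaf markers fell and 2 rose in *thp1-5*, and 5 fell and 1 rose in *sac3bc*. Over all 22400 genes that scaling called 3615 lower and 12534 higher in *thp1-5*, and 3637 and 13620 in *sac3bc*. The carbonic anhydrase gene *CA1* changed by −0.83 and −1.20, the Rubisco activase gene *RCA* by −0.42 and −0.70, *RBCS1A* by −0.53 and −0.68 and *RBCS3B* by −0.38 and −0.63. Summed over the 6, leaf markers ranged from 27735 to 28791 CPM in Col, 20138 to 21041 for *thp1-5* and 17300 to 18059 for *sac3bc*. Of 9 root markers, 6 rose and 1 fell in *thp1-5* and 8 rose and 1 fell in *sac3bc* (medians 0.72 and 1.12). With TMM factors, 32% of all genes tested were called higher in *thp1-5* and 35% in *sac3bc*. The root hair genes *PRP3*, *LRX1* and *EXPA18* rose by 0.85, 0.98 and 0.99 in *thp1-5* and by 1.52, 1.64 and 1.47 in *sac3bc*, while *PYK10*, the abundant root beta-glucosidase gene, changed by −1.10 and −1.13. Summed with *PYK10*, root markers ranged from 3712 to 3785 CPM in Col, 1800 to 1840 for *thp1-5* and 1817 to 1861 for *sac3bc*, and without it from 73.9 to 79.1, 112 to 123 and 171 to 171.4. No listed marker was at 0 in any group. The part of tissue proportions in the fall of the photosystem genes was not tested.

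**Figure D5:**
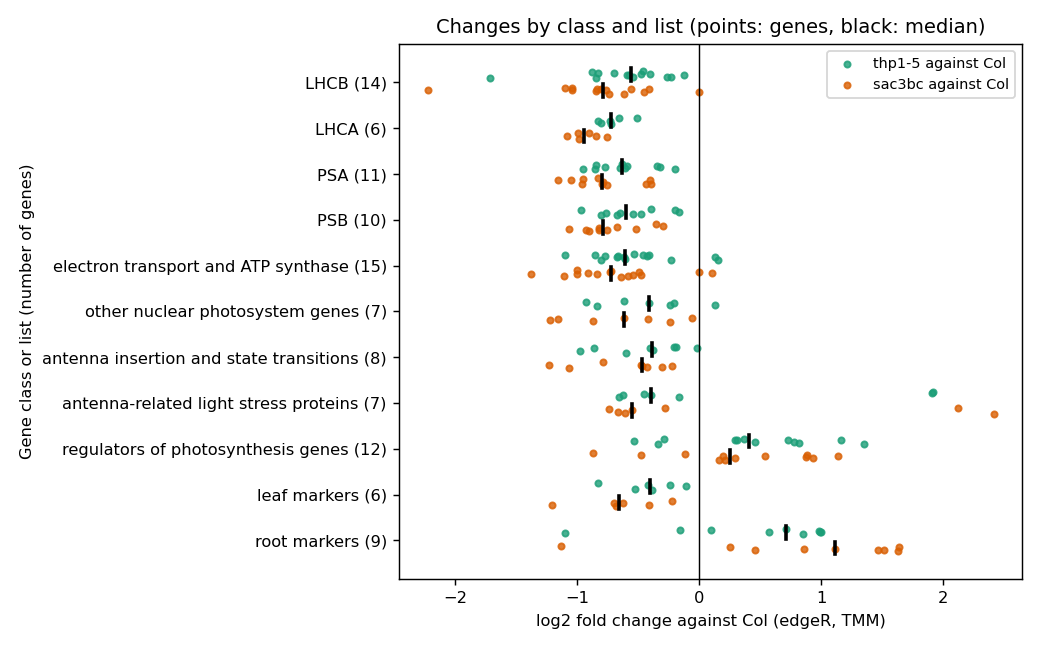
Log2 fold change against Col (x axis, edgeR with TMM factors) of each gene in the 4 classes and the 7 further lists (y axis, number of genes in brackets) in *thp1-5* (green) and *sac3bc* (orange), with the median of each as a black bar. The classes and the first 3 lists have medians between −0.94 and −0.39, the regulators of photosynthesis genes have medians of 0.41 and 0.25 and the root markers of 0.72 and 1.12.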

How the data were processed

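Read counts per gene, deposited by the authors as 1 table per library with a gene length, were the only measurement used. Per the submitters' processing notes the tools included STAR and DESeq2, without versions. The sources used here do not give the genome build, annotation, counting program, strand setting or treatment of reads with several matches. Per the labels' protocols, poly(A) RNA was read as single ends of 150 nt.

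The counts, 12.8 to 17.9 M per library, went into 1 edgeR model of all 9 libraries (edgeR 4.0.16, R 4.3.3), with filterByExpr (minimum count 10, 22400 genes left), TMM scaling and a robust quasi-likelihood test. Calls used a two-sided Benjamini-Hochberg adjusted p under 0.05 over all 22400 genes. SE was derived as the size of the log2 fold change over the root of its F statistic. Shares were compared with exact two-sided permutation tests (scipy 1.17.1). The scripts were tested on simulated counts. Alternatives were total counts, RLE factors, TMM without the 41 genes and organelle loci, DESeq2 1.42.0, no filter, 2 groups only, the replicate number as a block, summed copies and leaving out each library.

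The genes and lists were chosen with earlier results of these data known. Values per library are given for the 3 genes with the largest and the 1 with the smallest change per class and for 7 families of copies. From each further list up to 4 called genes with the smallest adjusted p are named per comparison. *FD1*, *ATPD*, *PSB28*, *PSBP2*, *CGA1* and *ELIP2* were named after their values were seen, as were the regulator genes given without values. Of the 41 genes, 16 share exonic bases with another locus in RefSeq TAIR10.1, 8 of them over 10%. Of 37051 nuclear loci, 99.51% had a deposited length equal to the union of their RefSeq exons, and promoters were located on that reference. Chloroplast-encoded loci and protein sequences were not analysed here.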

Additional observations from a re-analysis of the deposited data

How the results depend on the processing

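Of 123 gene results (41 genes in 3 comparisons), all kept their call with RLE factors, DESeq2, no filter, TMM without the 41 genes and organelle loci, and 2 groups only. All kept their direction there too except *LHCB4.3* in *sac3bc*, near 0 and not called, which was at 0.0014 with no filter. Scaling was the choice that moved them. With total counts, 4 genes were called higher in *thp1-5* and 2 in *sac3bc*, and the medians were −0.34, −0.48 and, between the mutants, 0.14. In *thp1-5* *LHCB2.2* (0.024), *LHCB6* (0.059), *PSAD2* (0.093), *PSBQ1* (0.092), *PSBY* (0.12) and *LHCB4.3* (0.16, not called) then changed sign, as did *LHCB4.3* (0.33) and *PSBY* (0.042) in *sac3bc*. Calls lost under it were *PSAD1* in *thp1-5* (−0.036), *PSBQ1* in *sac3bc* (−0.014) and, between the mutants, *PSAD1* (0.024) and *PSAH2* (0.043). Which of the scalings is nearer to mRNA per cell was not tested. Among the 25 genes that share no exonic bases, an alternative chosen after seeing the data, 24 were lower in each mutant and 24 higher in *thp1-5* than in *sac3bc*, with medians of −0.61 and −0.79; the lower counts follow from fewer genes. Leaving out 1 library at a time gave medians of −0.64 to −0.62 in *thp1-5* and −0.83 to −0.80 in *sac3bc*, and 1 lost call, *PSAD1* between the mutants without *thp1-5* replicate 1. *LHCB4.3* in *sac3bc*, never called there, ranged from −0.076 to 0.093 and was above 0 without Col replicate 3 (0.093), *thp1-5* replicate 1 (0.0007) or *sac3bc* replicate 3 (0.021).

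Deviations from the group mean correlated at −0.0093 to 0.0375 between libraries with the same replicate number. For different numbers the range was −0.0344 to 0.0209. Values this small cannot settle whether the numbers pair the libraries. With the replicate block, 14259, 15202 and 5094 genes were called in *thp1-5*, in *sac3bc* and between the mutants, against 14298, 15231 and 5149 (3284 between the mutants with DESeq2), and the 41 genes kept all calls. Overlapping loci and near copies limit single values, and at about 9.17 CPM low counts limit what can be detected for *LHCB4.3*.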

Other observations

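Genes outside the photosystems included some that rose while the antenna genes fell. Of 7 light stress proteins related to the antenna, 5 fell and 2 rose in each mutant (edgeR, adjusted p under 0.05), where 31.8% of all genes were called lower and 32% higher in *thp1-5* and 33% lower and 35% higher in *sac3bc*. With total counts 4 fell and 3 rose in *thp1-5*, and 4 fell and 2 rose in *sac3bc*. That scaling called 12534 of all 22400 genes higher in *thp1-5* and 13620 in *sac3bc*. The ones that rose were *ELIP1* and *ELIP2*, early light-induced proteins that bind chlorophyll under stress. *ELIP1* went from 5.21 ± 0.531 CPM in Col to 19.5 ± 0.530 for *thp1-5* and 22.5 ± 0.920 for *sac3bc* (SD, 3 libraries each), which is 1.91 ± 0.11 and 2.12 ± 0.11 on the log2 scale (SE). *ELIP2* went from 0.691 ± 0.227 CPM to 2.66 ± 0.440 and 3.80 ± 0.138, and both genes were lower in *thp1-5* than in *sac3bc* (adjusted p = 0.035 and 0.0474, edgeR). With RLE factors *ELIP2* was not called between the mutants (adjusted p = 0.0537, edgeR), and with DESeq2 neither was (adjusted p = 0.214 for *ELIP1* and 0.232 for *ELIP2*). *LIL3:2*, *OHP2* and *SEP1*, more distant relatives of the antenna proteins, changed by −0.62, −0.65 and −0.45 in *thp1-5* and by −0.66, −0.74 and −0.61 in *sac3bc*.

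Of 12 regulators of photosynthesis genes, 9 rose and 3 fell in each mutant (medians 0.41 and 0.25). Among all genes tested, 32% were called higher and 31.8% lower in *thp1-5*, and 35% and 33% in *sac3bc*. With total counts 9 rose and 1 fell in *thp1-5*, and 10 rose and 2 fell in *sac3bc* (medians 0.70 and 0.59). Over all 22400 genes that scaling called 12534 higher and 3615 lower in *thp1-5*, and 13620 and 3637 in *sac3bc*. It moved the median of all genes to 0.30 and 0.37. The GATA factor genes *GNC* and *CGA1*, which promote greening, rose by 1.16 ± 0.05 and 1.35 ± 0.14 in *thp1-5* and by 0.93 ± 0.05 and 1.13 ± 0.14 in *sac3bc*. *PIF5*, a bHLH factor degraded in light, rose by 0.73 ± 0.03 and 0.54 ± 0.03, while its relative *PIF4* changed by −0.54 ± 0.03 and −0.87 ± 0.03. *GUN1*, of plastid signalling, changed by −0.33 ± 0.03 and −0.47 ± 0.03, and with total counts it was not called in *thp1-5* (−0.047). *GLK1*, which encodes an activator of antenna genes, changed by −0.28 ± 0.03 in *thp1-5* and −0.11 ± 0.03 in *sac3bc*. The other GLK gene, *GLK2*, went the other way and was among the 9 called higher in each mutant with TMM factors. *HY5*, *HYH*, *PIF1*, *PIF3* and *COP1* were also among these 9. With total counts *GLK1* was not called in *thp1-5* (0.0033) and was called higher in *sac3bc* (0.22), so its direction depends on the scaling.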
